A study of Mus musculus with 3 samples.

Results

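Contacts of the promoters of Zfp genes, which encode zinc finger proteins, were examined in mouse erythroid cells. A viewpoint is a captured DpnII restriction fragment at a promoter, and it was counted here when one of the gene names joined in its label read Zfp followed by digits. Names that occurred more than once in the design were left out. The rule took 215 of 7176 viewpoints with a position and contacts, and used names and positions but no count. Of the 215, 141 were clustered, with another Zfp viewpoint within 500 kb, and 74 were single. The widest clustered gap was that of Zfp668 to Zfp689 at 427.9 kb, and the narrowest single gap that between Zfp39 and Zfp867 at 568.2 kb. The contacts came from nuclear-titrated Capture-C, in which chromatin is cut with DpnII, ligated, and enriched with probes for the viewpoints, and each value stands for the unique ligations of a viewpoint to 1 further fragment on its chromosome, called cis events. The 3 libraries formed 1 group without a control. They were made from ter119+ erythroid cells of spleens from F1 hybrid mice of C57BL/6 and CBA/J, and all of these mice had received phenylhydrazine, which destroys red cells and fills the spleen with erythroid precursors, and were killed on day 5. Age and the number of animals were not given in the sources used here, and no label ties a library to its own animal, so the spread between libraries may be technical. Ligation counts hold no expression level, so the erythroid label was not checked against marker genes.

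Most Zfp genes encode C2H2 proteins, in which each finger holds a zinc ion between a pair of cysteines and a pair of histidines, and a row of fingers reads a DNA sequence. Many also carry a KRAB box, which recruits the corepressor TRIM28 and silences retroelements. These genes lie in tandem arrays that grew by duplication, so neighbouring genes and their promoters are often near copies of one another. In an assay that assigns reads by sequence, a copy of a viewpoint's surroundings elsewhere on the chromosome can receive its reads, so contacts at such copies are treated with care here. Calls, totals and shares by distance include them, while fragments that share sequence with a Zfp viewpoint were left out of its values beside promoters, on the sides of clusters and at distant clusters.

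Letters a, b and c name the 3 libraries after the order of their unnamed columns. They held 18230099, 34428035 and 34233560 cis events. Over the Zfp viewpoints the chi-square per fragment at 2.5 to 10 kb, where 1 stands for sampling noise alone, was 0.821 between libraries b and c, 0.932 between a and b and 0.926 between a and c, and over 100 kb away it was 1.03 to 1.06 in every pair. Libraries b and c, the nearest pair at short range, were counted as 1 sample, and errors are SDs over n = 2, library a and the mean of b and c. By this measure b and c were set apart only slightly, but between the cis totals of members the chi-square per degree of freedom was 94.9 for a and b and 101 for a and c against 1.31 for b and c, and between their shares by distance it was 4.404, 4.12 and 1.12. With 3 libraries an exact two-sided sign-flip test cannot give a p below 0.25, so differences between sets of viewpoints are described by the value in each library.

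Zfp viewpoints had about the depth of other promoters. The median cis total was 1365 events in library a, 2860 in b and 2843 in c, against 1377, 2554 and 2528 for the 6961 other viewpoints. Clustered viewpoints had medians of 1451, 2909 and 2945 and single viewpoints of 1261, 2445.5 and 2508.5. The ratio of the clustered to the single median was 1.17 ± 0.022 (SD, n = 2), but it was 0.996 in the sum when clusters were drawn at 250 kb. Totals ran from 90 events for Zfp628 (23, 32 and 35) to 87344 for Zfp182, a gene on chromosome X (9654, 38467 and 39223). At least 1000 cis events were reached by 196 viewpoints, 132 clustered and 64 single, and the profiles below rest on these. The 19 members below it, 9 clustered and 10 single, are given by their totals alone.

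The promoter fragments of clustered genes were poorer in CpG dinucleotides than those of single genes. Their median ratio of observed to expected CpG was 0.603, while it was 0.760 in single and 0.758 in other viewpoints. Median GC content was 53.1%, 59.5% and 59.2% in the same order. Among members with a coding model in the GENCODE annotation, the median number of C2H2 fingers was 11 in 128 clustered and 8 in 73 single members. The highest number in a member was 36, whether or not the fingers stood in 1 row. A match to the motif used for the KRAB A box was found in 55 of the 128 (43.0%) and in 12 of the 73 (16.4%). A box that departs from this motif was not counted, so these shares may be too low. The annotated start site lay on the viewpoint fragment in 151 of 201 members.

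A larger share of Zfp promoters than of all promoters had a called distal contact, and 39 of the 42 contacts lay at fragments that repeat a stretch of the sequence around the viewpoint. These counts depend on the dispersion used for the calls. A contact was called when the summed count of a viewpoint and a fragment from 2.5 kb to 1 Mb away lay above the count that its distance and the viewpoint's total gave, by a negative binomial test with Benjamini-Hochberg adjustment over all 28839713 pairs of all viewpoints, and when the count was above expectation in each library. Of all pairs, 0.00086% were called, and of all 6718 viewpoints tested 2.31% had a called contact. Of the 836360 pairs of Zfp viewpoints, 42 were called (0.00502%), from 26 of 196 viewpoints (13.3%). Clustered viewpoints gave 39 of these contacts, from 23 viewpoints, and the single Zfp97, Zfp949 and Zfp407 gave 1 each. The called contacts lay at a median of 351 kb and 30 lay over 100 kb away. These distances depend on the dispersion, which was fitted in each distance bin and jumped between neighbouring bins. It rose from 0.223 to 212 in the bin of 13382 to 15085 bases and from 0.837 to 1419 in that of 301709 to 340118 bases. In such bins a contact needed a far larger excess to be called. Their summed counts ran from 7 to 5205 events with a median of 52. By annotation, 23 fragments were intergenic, 4 intronic and 15 exonic. The same shares over all tested fragments were not taken.

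The sequences below show how close the copies were for 5 of the strongest called contacts and for the neighbours of Zfp955a and Zfp955b. For each contact the upper line is a stretch within the viewpoint fragment and the lower line a stretch of the called fragment, in build mm9. Capitals mark the longest run of identical bases within the fragment, and the lower case letters are the 10 bases on either side. A run stops at the end of a fragment, so identity can go on into the lower case letters. None of these stretches overlaps an annotated exon. For Zfp994 they lie at chr17:22362366-22362457 and chr17:22451574-22451665, for Zfp729b at chr13:67711286-67711375 and chr13:67739208-67739297, for Zfp951 at chr5:105289658-105289723 and chr5:105258648-105258713, for Zfp33b at chr5:105000978-105001092 and chr5:105199734-105199848, and for Zfp983 at chr17:21787563-21787732 and chr17:21816914-21817083, all on the plus strand. Beside Zfp955a, the stretch chr17:33391474-33391568 on the plus strand equals chr17:33427011-33427105 on the minus strand beside Zfp955b at all 95 bases, and it is printed once.
Zfp994 viewpoint: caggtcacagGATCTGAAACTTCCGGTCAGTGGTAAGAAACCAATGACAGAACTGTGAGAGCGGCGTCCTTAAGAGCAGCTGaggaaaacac
Zfp994 called fragment: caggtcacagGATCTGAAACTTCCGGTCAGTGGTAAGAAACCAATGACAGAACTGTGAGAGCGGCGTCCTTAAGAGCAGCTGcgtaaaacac
Zfp729b viewpoint: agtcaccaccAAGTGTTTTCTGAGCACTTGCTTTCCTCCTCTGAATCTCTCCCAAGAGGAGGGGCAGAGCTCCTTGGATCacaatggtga
Zfp729b called fragment: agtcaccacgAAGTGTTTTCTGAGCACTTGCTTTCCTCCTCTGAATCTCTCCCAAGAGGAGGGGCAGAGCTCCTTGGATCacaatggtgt
Zfp951 viewpoint: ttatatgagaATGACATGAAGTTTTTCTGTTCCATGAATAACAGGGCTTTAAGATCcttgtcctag
Zfp951 called fragment: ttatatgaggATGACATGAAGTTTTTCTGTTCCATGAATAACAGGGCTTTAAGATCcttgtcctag
Zfp33b viewpoint: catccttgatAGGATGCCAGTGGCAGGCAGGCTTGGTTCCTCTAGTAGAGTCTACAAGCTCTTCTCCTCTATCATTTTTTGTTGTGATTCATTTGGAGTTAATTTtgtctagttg
Zfp33b called fragment: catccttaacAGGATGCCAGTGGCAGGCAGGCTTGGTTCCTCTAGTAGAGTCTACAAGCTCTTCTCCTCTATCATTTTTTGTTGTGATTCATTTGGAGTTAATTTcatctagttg
Zfp983 viewpoint: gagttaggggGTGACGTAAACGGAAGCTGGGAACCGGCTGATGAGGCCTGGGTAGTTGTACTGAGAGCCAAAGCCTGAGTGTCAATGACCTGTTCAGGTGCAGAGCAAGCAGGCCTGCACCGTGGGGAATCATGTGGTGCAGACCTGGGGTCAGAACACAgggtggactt
Zfp983 called fragment: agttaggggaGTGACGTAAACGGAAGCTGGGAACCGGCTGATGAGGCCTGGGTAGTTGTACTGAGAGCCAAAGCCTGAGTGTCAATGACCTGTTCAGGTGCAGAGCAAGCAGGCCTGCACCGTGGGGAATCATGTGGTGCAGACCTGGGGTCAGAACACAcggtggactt
Zfp955a and Zfp955b neighbours: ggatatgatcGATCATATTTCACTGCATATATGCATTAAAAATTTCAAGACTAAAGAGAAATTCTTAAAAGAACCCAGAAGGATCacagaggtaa
In Zfp994, Zfp729b and Zfp951 the run holds the GATC site at which the fragment is cut. For Zfp994 and Zfp729b 2 of the 20 lower case bases differed between the lines, for Zfp951 1, for Zfp33b 4 and for Zfp983 7. Bases were compared position by position. The bases before the Zfp983 run differed at most positions, but they read alike when shifted by 1 base.

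The runs were far longer at called than at other fragments. The 20 kb on either side of each viewpoint were searched for the longest stretch identical to a stretch of the fragment, on either strand. Of the 42 called fragments, 39 (92.9%) held a run of at least 30 bases, against 16.3% of the uncalled fragments of the same viewpoints and 12% of the uncalled fragments of all Zfp viewpoints. A run of at least 70 bases was held by 52.4%, 2.67% and 0.943%, and 8 called fragments were identical to the surroundings over their whole length. Called fragments were 335 bases long at the median and uncalled ones of the same viewpoints 316. Among fragments of 300 to under 1000 bases, 17 of 17 called and 20.8% of uncalled fragments of the same viewpoints held a run of 30 bases. Within the viewpoint fragment itself, a 30-base word was shared by 20 of the 42, and the called fragment held such a word or lay within 5 fragments of one that did in 31 of the 42. Of the 836360 tested pairs of Zfp viewpoints, 2055 held such a word. In 818424 the fragment neither held one nor lay within 5 fragments of one. With the highest 0.1% and 1% of counts left out of the dispersion, 91 of 145 and 110 of 248 called contacts of Zfp viewpoints held or lay near such a word, and with Poisson counts 326 of 3772. The share of Zfp viewpoints with a call was then 22.4%, 40.8% and 98.5%, against 7.84%, 24.1% and 98.1% of all viewpoints, so that its ratio to the share of all viewpoints became smaller with each of these settings. Contacts of the viewpoint and reads from the copied surroundings cannot be told apart in these counts.

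**Figure D1:**
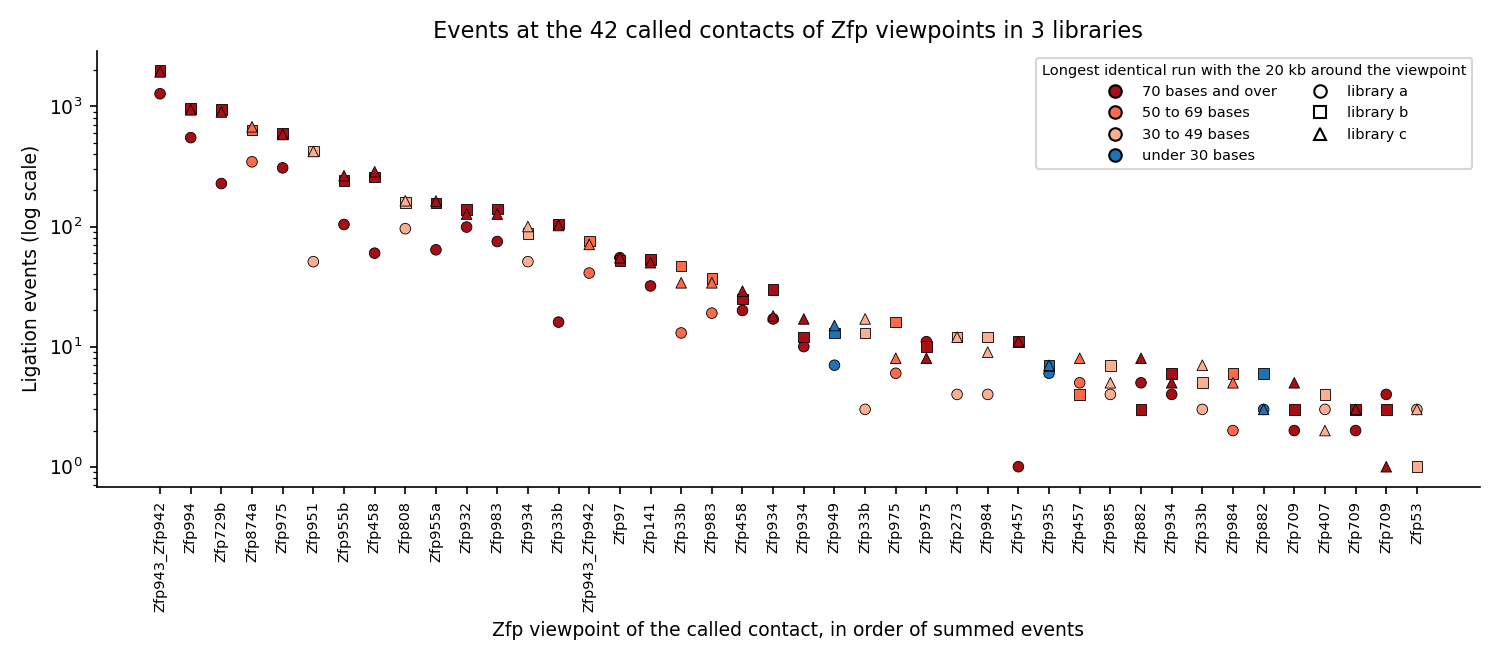
Ligation events at the 42 called contacts of Zfp viewpoints. Each column is a contact, labelled by its viewpoint and ordered by summed events, on a log axis of events per library (circles a, squares b, triangles c). Colour gives the longest run identical to the 20 kb around the viewpoint: 39 contacts hold a run of at least 30 bases and 3, in blue, do not.

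Of the called contacts 9 lay next to another Zfp viewpoint. The share of such fragments among all tested ones was not taken, so the 9 are not read as an excess. The most events joined Zfp943_Zfp942, a promoter fragment named for both genes, to the fragment beside Zfp758_Zfp944 at chr17:22498008-22498342, 399 kb away, with 1276, 1990 and 1939 events in libraries a, b and c. This was 3048 ± 268 times the expected count (SD, n = 2). The adjusted p of the negative binomial test was 2.27e-69, and the fragment held a run of 113 bases. Zfp729b reached the fragment beside Zfp729a at chr13:67739006-67739285, 28.6 kb away, with 228, 945 and 899 events. Zfp874a reached chr13:67585091-67585189 beside Zfp874b with 346, 635 and 677 events at 31.9 kb. Every library was high at these fragments, and the count was lowest in library a, the library of the lowest depth. The ratios to expectation were 243 ± 43.9 for Zfp729b and 248 ± 12.2 for Zfp874a (SD, n = 2). Their adjusted p values were 1.07e-134 and 1.14e-39.

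Contacts were called in both directions for 2 pairs. Zfp808 had 96, 159 and 164 events with chr13:62659866-62659901 beside Zfp934, 429 kb away, and Zfp934 had 51, 87 and 100 events with chr13:62231334-62231369 beside Zfp808. Both fragments were identical to the surroundings of their viewpoint over all 40 bases, the cutting sites at both ends included. The adjusted p values were 4.56e-13 and 2.80e-07. Zfp955b had 104, 242 and 265 events with chr17:33391486-33391556 beside Zfp955a, and Zfp955a had 64, 157 and 163 events with chr17:33427023-33427093 beside Zfp955b, at 35.2 kb. These are the fragments whose shared 75-base run is printed above, and their ratios to expectation were 24.6 ± 7.25 and 15.3 ± 4.70 (SD, n = 2). Zfp33b reached chr5:105287831-105288306 beside Zfp951 with 13, 47 and 34 events at 287 kb, and Zfp53 reached the fragment beside Zfp758_Zfp944 with 3, 1 and 3 events, a call that was lost without library a or library c.

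Other strong contacts lay between genes. Zfp994 had 550, 966 and 937 events with the intergenic fragment chr17:22451586-22451896, 89.2 kb away, which was 918 ± 28.2 times the expected count (SD, n = 2). Its adjusted p was 7.44e-135. Zfp943_Zfp942 was called at that fragment too, with 41, 76 and 71 events and a run of 57 bases in its surroundings. Zfp951 had 51, 425 and 422 events with chr5:105257991-105258701, 30.7 kb away, with an adjusted p of 1.11e-134, and Zfp33b was called at the same fragment with 3, 13 and 17 events. A single fragment thus received calls from more than 1 Zfp viewpoint in both places. Zfp33b also had 16, 105 and 102 events with chr5:105198801-105200402, 199 kb away, where its ratio to expectation was 375 ± 68.6 (SD, n = 2). Zfp983 had 75, 140 and 127 events with chr17:21815841-21817160 at 29.0 kb and 19, 37 and 34 with the fragment that follows it. Zfp97 had 55, 52 and 55 events with chr17:17316052-17316248 at 57.7 kb, and this fragment was identical to the surroundings of Zfp97 over all its 201 bases. Zfp975 had 6, 16 and 8 events with chr7:50432676-50433847.

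A further set of contacts lay in other annotated genes. Zfp273 had 4, 12 and 12 events with chr13:67181988-67182696 in Zfp708, 732 kb away, with an adjusted p of 1.64e-32. Zfp932, whose protein represses endogenous retroviruses, had 99, 139 and 127 events with chr5:110352496-110352840 in the predicted gene Gm15446, at 72.9 kb and with a run of 131 bases. Zfp975 had 308, 595 and 584 events with chr7:49897286-49898246 in 9830147E19Rik. Zfp984 had 4, 12 and 9 events with chr4:146822664-146822881 in an intron of the long noncoding RNA Gm16889. Zfp934 had 10, 12 and 17 with chr13:61905472-61905710, 754 kb away.

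The 3 called contacts without a run of 30 bases had fewer events than the median of 52. Zfp935 had 6, 7 and 7 events with the short fragment chr13:62326462-62326497, and Zfp882 had 3, 6 and 3 with chr8:73567318-73567546, a fragment that was also called for Zfp709, to whose surroundings it was identical. That copy lay within chr8:74410543-74410795, beyond the 20 kb searched around Zfp882. The remaining contact was that of the single Zfp949 with chr9:89107393-89109669, 665 kb away, in the untranslated region of Mthfs, a gene of folate metabolism, and 4 fragments from the viewpoint of Mthfs. It had 7, 13 and 15 events, which was 25.1 ± 0.666 times expectation (SD, n = 2), and the longest identical run was 14 bases. The adjusted p was 0.00599, and the call was lost without library c. All 6 other viewpoints in range had events there, at 1.74 times expectation.

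Uncalled fragments with long runs also had more events, in clustered viewpoints. Over 25 kb away and with the called contacts left out, fragments without a run of 30 bases had 0.920 ± 0.010 of the expected events in clustered viewpoints, and fragments with a run of at least 70 bases had 2.10 ± 0.0056 times the expected events (SD, n = 2). Single viewpoints had 0.980 and 1.31. The expectation did not take fragment length into account, and fragments without a run were shorter, 272 bases at the median against 558 to 630 in clustered viewpoints. Among fragments of 300 to under 1000 bases the values for clustered viewpoints were 1.27 without a run, 1.21 with 30 to 49 bases, 1.27 with 50 to 69 bases and 2.0 ± 0.0064 with at least 70 bases (SD, n = 2). In single viewpoints the same 4 values were 1.34, 1.24, 1.24 and 1.25, with no rise at the longest runs.

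**Figure D2:**
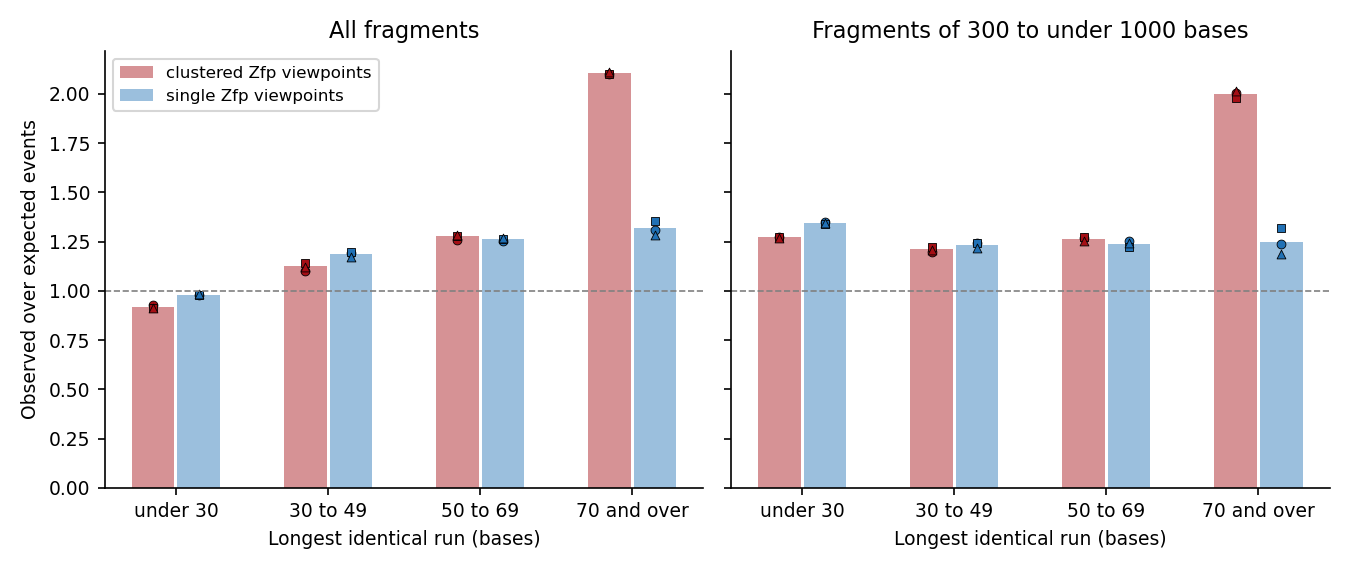
Observed over expected events of clustered (red) and single (blue) Zfp viewpoints by the longest run, in bases, that a fragment shares with the 20 kb around the viewpoint. Called contacts are left out, bars give the sum of libraries, symbols the libraries (circles a, squares b, triangles c), and the right panel keeps fragments of 300 to under 1000 bases, where the class of 70 bases and over stands at 2.0 in clustered viewpoints.

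Viewpoints whose own sequence recurs on the chromosome were mostly clustered ones. A 30-base word of the viewpoint fragment was found in 1 to 500 other fragments for 59 members, 50 clustered and 9 single, in over 500 fragments, as repeats give, for 28, and in none for 128. Of members with a match to the KRAB motif, 19 of 55 clustered (34.5%) and 0 of 12 single ones shared words with up to 500 fragments. Of members without a match, which may still carry a KRAB box, 23 of 73 clustered (31.5%) and 9 of 61 single ones (14.8%) did. In the 40 of these with such a fragment in range of the test, called contacts included, a fragment that held the word had 56.3 ± 2.56 times the expected events (SD, n = 2), with 58.2, 54.6 and 54.5 in libraries a, b and c. The contact of Zfp943_Zfp942 beside Zfp758_Zfp944 alone gave 5205 of the 14868 events. By the number of words shared the value in the sum was 6.35 at 1 to 5 words, 2.14 at 6 to 20, 41.0 at 21 to 70 and 111 at over 70. The fragment next to the one with the word had 7.12 times the expected events in the sum, the one after 2.19, and those over 40 fragments away 0.892. The value thus fell in every step from the copy outward. In viewpoints with repeat words the value was 2.45 at the word and 1.13 beside it.

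**Figure D3:**
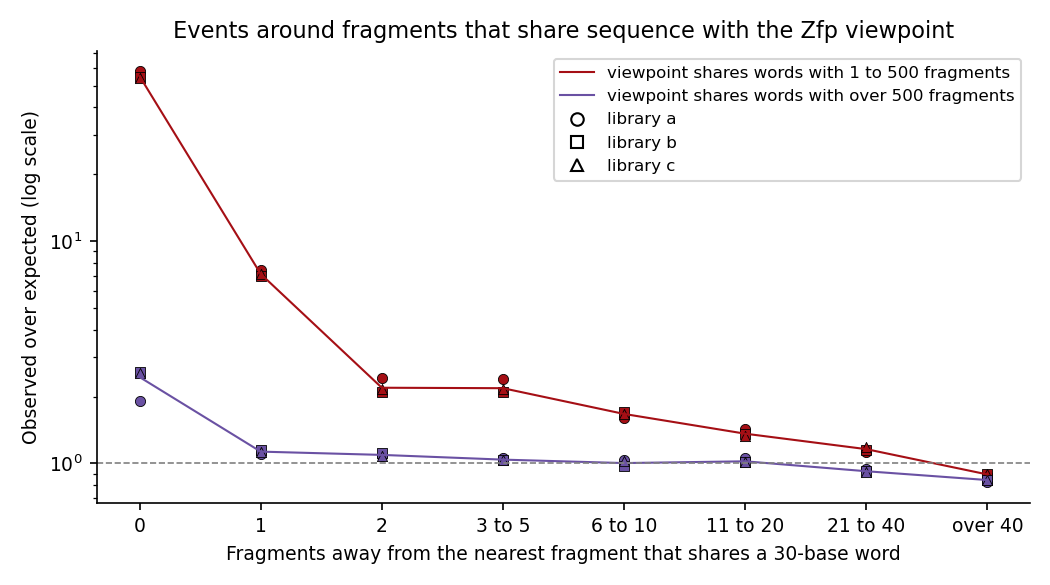
Observed over expected events, on a log axis, by the number of fragments from the nearest fragment that shares a 30-base word with the Zfp viewpoint. The red line joins the sums for viewpoints sharing words with 1 to 500 fragments, from 55.3 at the word to 0.892 beyond 40 fragments, the purple line those for over 500, and symbols give libraries a (circles), b (squares) and c (triangles).

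A few pairs of neighbouring Zfp viewpoints shared much of their lists of contacts. Of 409 pairs of Zfp viewpoints within 1 Mb of each other, 3 had a chi-square per fragment between their lists under 0.9, where the median pair had 1.28. Zfp955a and Zfp955b, 34.8 kb apart, had cis totals of 15195, 26886 and 26727 and of 15079, 26699 and 26413. Their viewpoint fragments were identical at all 643 bases on opposite strands, 37000 fragments stood in both lists (97.6% of each), and 30866 of these had equal counts. The chi-square was 0.177. Zfp119a and Zfp959 were identical at 317 of 321 bases and shared 65.5% and 72.2% of their lists. Zfp758_Zfp944 had 97.2% of its list in that of Zfp943_Zfp942, which was longer, so that the shared part was 21.4% of the latter. In the remaining pairs at most 20.4% of fragments stood in both lists, and the median over all 409 pairs was 7.01%. The events of Zfp955a and Zfp955b cannot be told apart, while in the other pairs part of each longer list stood in 1 list alone.

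The promoter that Zfp955a and Zfp955b share in sequence is shown because no read within it can tell the genes apart. In the RefSeq sequences of build GRCm38.p6, which held 186 of the 214 Zfp genes named by members, the 250 bases before the start were identical between these genes at every base, the only such pair among 2077 pairs on 1 chromosome. They lie at chr17:33255146-33255395 on the minus strand and chr17:33289294-33289543 on the plus strand. The capitals mark the DpnII sites, GATC, of which there are 2.
Zfp955a and Zfp955b promoter: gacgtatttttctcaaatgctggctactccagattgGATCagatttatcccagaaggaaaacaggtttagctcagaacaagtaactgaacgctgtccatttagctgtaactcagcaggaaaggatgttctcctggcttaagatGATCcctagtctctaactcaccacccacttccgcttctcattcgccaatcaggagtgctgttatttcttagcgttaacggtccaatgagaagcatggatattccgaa

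Zfp promoters had more events beside each other than beside other promoters when fragments of every length were counted, but fewer once the surroundings of copies were left out or fragments of like length were compared. Targeted fragments were not listed as contacts, so the 2 fragments on either side of the other viewpoint stood for it, from 10 kb to 1 Mb and without fragments that shared a word. Words were sought only for Zfp viewpoints and for other viewpoints in bins of 500 kb with at least 3 annotated Zfp genes. Pairs of other viewpoints thus kept 309680 of 309704 fragments, and their values may still hold copies. Zfp viewpoints had 1.88 ± 0.053 times the expected events beside another Zfp viewpoint (SD, n = 2, 843 pairs), with 1.91, 1.83 and 1.84 in libraries a, b and c. Beside other viewpoints they had 1.54 ± 0.070, other viewpoints beside a Zfp viewpoint had 1.30 ± 0.041, and pairs of other viewpoints had 1.46 ± 0.0060. When fragments within 5 places of a shared word were left out too, the value between Zfp viewpoints was 1.18 ± 0.066, while that with other viewpoints was 1.54 ± 0.063 (SD, n = 2). Without the 6 viewpoints of the low chi-square pairs it was 1.38 ± 0.076. At fragments of 300 to under 1000 bases the values in the sum were 1.88 between Zfp viewpoints (2.05, 1.86 and 1.82 in libraries a, b and c) and 2.10 with other viewpoints (2.24, 2.05 and 2.07) before those 5 places were left out. After that they were 1.61 between Zfp viewpoints, 2.09 with other viewpoints and 1.86 between other viewpoints. Over the whole range the order of Zfp with Zfp above Zfp with other thus turned in each of the 3 libraries when copies were left out, and also when length was held alike with copies nearby kept, but not at every distance. At 50 to 200 kb the values in the sum were 1.24 with Zfp and 1.51 with other viewpoints before that step, and at 500 to 1000 kb they were still 1.86 and 1.62 after it. Pairs of other viewpoints stood higher at 500 to 1000 kb, at 1.98 after that step.

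**Figure D4:**
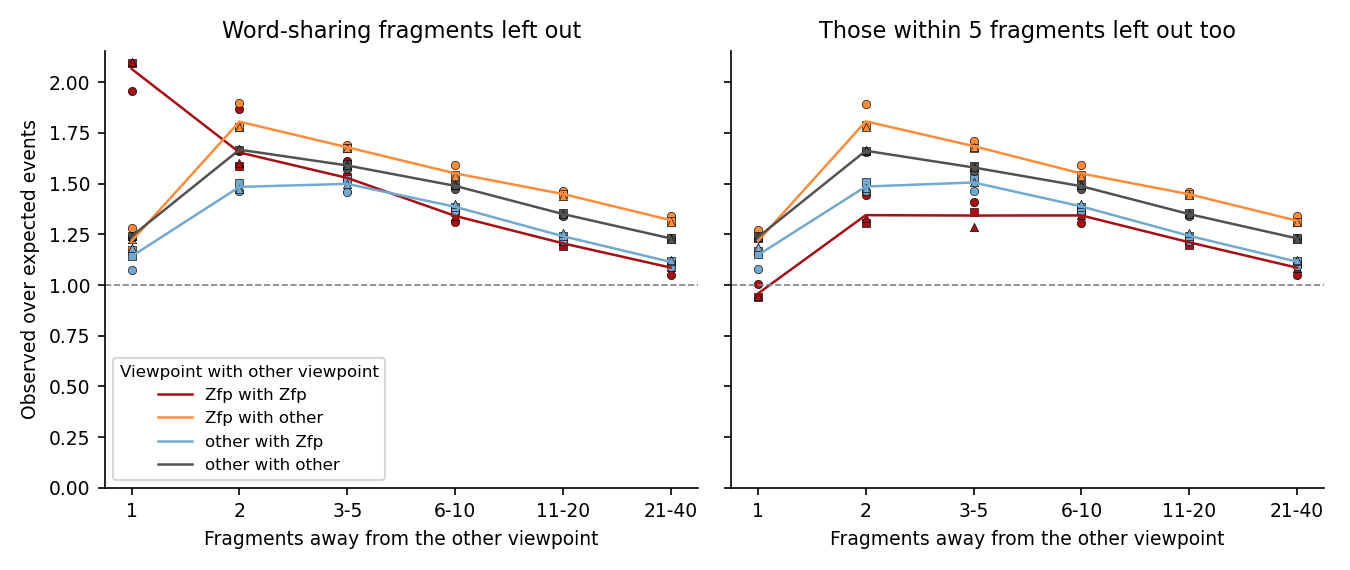
Observed over expected events by the number of fragments from another viewpoint, for the 4 kinds of viewpoint pair given in the legend. Lines join the sums and symbols give libraries a (circles), b (squares) and c (triangles); at 1 fragment the Zfp with Zfp value is 2.07 without word-sharing fragments (left) and 0.958 when those within 5 fragments are left out too (right).

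Among 24 directed pairs of Zfp viewpoints with at least 30 expected events and no shared word in the flanks, the highest values belonged to the low chi-square pairs. Zfp955b beside Zfp955a had 199, 431 and 455 events, 15.1 times expectation in the sum, and Zfp955a beside Zfp955b had 192, 430 and 434, or 14.7 times. Zfp959 beside Zfp119a had 34, 53 and 36 events and Zfp119a beside Zfp959 36, 53 and 35, at 3.9 and 3.55 times. The highest pair outside these was Zfp426 beside Zfp266, with 16, 17 and 26 events at 1.92 ± 0.410 times expectation (SD, n = 2). At the other end, Zfp82 beside Zfp14 had 1, 6 and 6 events at 0.327 ± 0.300 times. The values of single pairs thus lay on both sides of expectation.

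By distance, Zfp viewpoints had a slightly larger share of events far away on the chromosome. The median share over 10 Mb was 34.6%, 38.0% and 37.5% in libraries a, b and c, against 31.5%, 34.8% and 34.8% for other viewpoints, and it was higher in each library. Between 10 and 100 kb the medians were 15.4%, 13.98% and 14.3%, against 17.4%, 15.5% and 15.6%, and lower in each. Clustered viewpoints had a median over 10 Mb of 36.0% ± 2.01 and single ones of 36.8% ± 3.16 (SD, n = 2). Both sets come from the same libraries, so these errors do not measure the error of their difference.

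**Figure D5:**
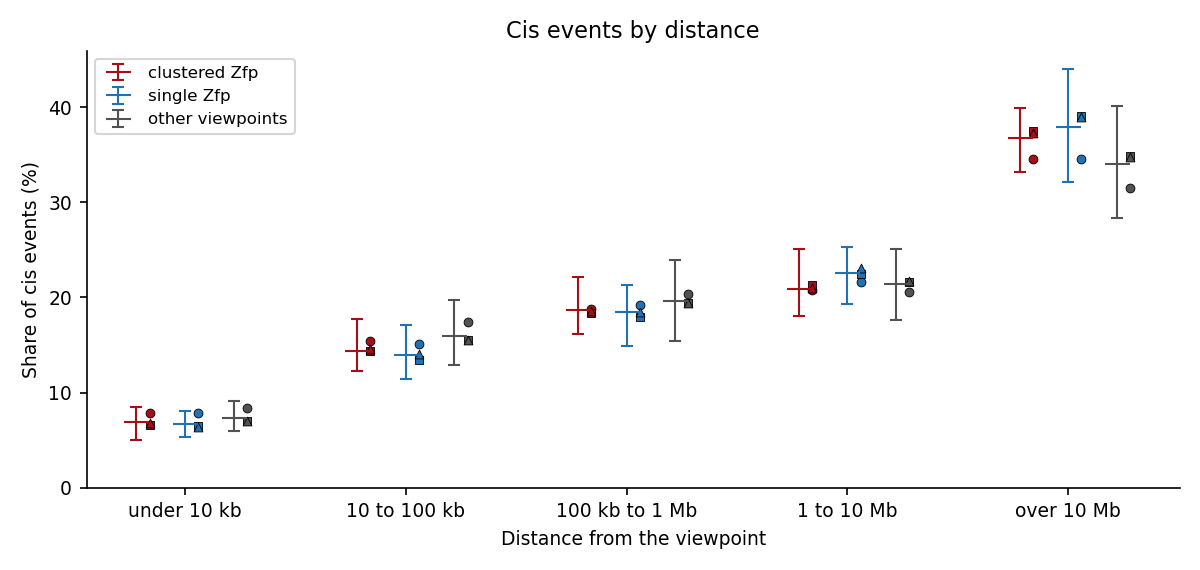
Share of cis events, in percent, by distance from the viewpoint for clustered Zfp (red), single Zfp (blue) and other viewpoints (grey). Dashes are medians of the summed libraries with bars from the lower to the upper quartile over viewpoints, and symbols are medians of libraries a (circles), b (squares) and c (triangles); over 10 Mb the summed medians are 36.8%, 37.9% and 34.0%.

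Summed over viewpoints, contacts of Zfp promoters at a cluster's edge leaned toward the cluster by a factor of 1.08, with a median of 1.02. Those of other promoters beside clusters leaned by the same summed factor at the cluster limit of 500 kb. At other limits the factors differed. For 62 Zfp viewpoints at the edge of a cluster, whose Zfp neighbours all lie on the same side, the events from 10 to 500 kb on that side over those on the opposite side, each relative to expectation, gave a ratio of 1.09, 1.08 and 1.07 in libraries a, b and c, and 33 of the 62 were higher toward the cluster. The 192 other viewpoints beside a cluster had 1.07, 1.10 and 1.09. The order of the sets differed between libraries, and the means were 1.08 ± 0.011 and 1.08 ± 0.016 (SD, n = 2). With a limit of 250 kb they were 1.09 ± 0.0096 and 1.01 ± 0.013, and with 1 Mb 1.07 ± 0.0092 and 1.24 ± 0.025 (SD, n = 2). The median ratio over single viewpoints was 1.02 for the 62 Zfp viewpoints and 1.05 for the 192 others. With fragments within 5 places of a shared word left out, 31 of the 62 were higher toward the cluster. Their median ratio was then 0.996. The median share of fragments listed was 85.9% on the cluster side and 87.2% on the other.

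Contacts of Zfp promoters with distant Zfp gene clusters stood slightly below expectation when all chromosomes were counted together. The genome held 30 bins of 500 kb with at least 3 annotated Zfp genes, on 11 chromosomes, and contacts over 2 Mb away were compared with those of non-Zfp viewpoints of the same chromosome. The 145 Zfp viewpoints with such a bin had 0.986, 0.942 and 0.949 of the expected events in libraries a, b and c, and 70 of them were above 1. Clustered members stood at 0.981, 0.928 and 0.939, and the 42 single members at 1.01, 1.02 and 1.003. Without chromosome X and the deeply captured stretch of chromosome 9 the remaining 40 single members had 0.985 times the expected events in the sum. In bins rich in genes other than Zfp genes, Zfp viewpoints stood at 0.985 ± 0.020 (SD, n = 2). Clustered members had 0.981, 0.951 and 0.948 in those bins and single members 1.04, 1.02 and 1.02, so the split was not particular to Zfp-dense bins. Non-Zfp viewpoints that lie in Zfp-dense bins had 1.01 ± 0.029 with distant Zfp-dense bins (SD, n = 2). Without chromosome 7 these non-Zfp viewpoints had 0.902 and Zfp viewpoints 0.920 in the sum. Chromosomes differed. On chromosome 8, 12 viewpoints had 1.5, 1.37 and 1.46 times the expected events. Its clustered members, at chr8:71732458-72299235 and chr8:74405364-74475211, stood at 1.15 to 2.15 in the sum, each with 1 such bin in range. That bin was the one of the other cluster, under 5 Mb away, so 1 pair of regions was seen from both ends. The single members Zfp330, Zfp90, Zfp821 and Vps9d1_Zfp276 stood at 0.535, 0.558, 1.27 and 1.32. On chromosome 13, 25 viewpoints had 0.601, 0.756 and 0.673. Non-Zfp viewpoints in the dense bins of chromosome 13 had 0.669, 0.712 and 0.831, so that both sets lay below 1 there.

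The 5 largest clusters differed in the events between their promoters. The largest, chr13:67161629-67914963, runs from Zfp712 to Zfp273 and held 16 viewpoints, Zfp458, Zfp457, Zfp595, Zfp953, Zfp456, Zfp429, Zfp874a, Zfp874b, Zfp87, 9430065F17Rik_Zfp748, Zfp729b, Zfp729a, Zfp738 and Zfp85 among them. It had 9 members with a match to the KRAB motif among 13 with a coding model, a median CpG ratio of 0.404 and 7 called contacts. Events beside other viewpoints of the cluster were 1.24 ± 0.083 times expectation (SD, n = 2), and 1.19 ± 0.094 away from shared words. The cluster chr17:21145873-22561215 held 12 viewpoints, from Zfp160, Zfp54, Zfp51 and Zfp53 through Zfp948, Zfp983, Zfp760, Zfp229, Zfp943_Zfp942, Zfp994 and Zfp758_Zfp944 to Zfp946, and 6 called contacts. Its value was 1.71 ± 0.127, and 1.62 ± 0.149 away from shared words (SD, n = 2), the highest of the 5 on the latter measure.

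The cluster chr17:32923689-33766042 had 12 viewpoints, Zfp871_a, Zfp871_b, Zfp811, Zfp870, Zfp472_Cyp4f41ps, Zfp952, Zfp763, Zfp563, Zfp955a, Zfp955b, Zfp101 and Zfp414, and 11 of its 12 coding models held a KRAB box. Its value was 2.84 ± 0.309 with and 1.06 ± 0.071 without fragments near shared words (SD, n = 2). Its deepest viewpoints were Zfp955a, Zfp955b and Zfp811, with 68808, 68191 and 67344 cis events. On chromosome 7, the clusters chr7:30553483-30955460 with 11 viewpoints and chr7:28459260-29164720 with 7 had 0 called contacts, and values below 1 in each library, with 0.976, 0.892 and 0.913 in libraries a, b and c for the former and 0.859, 0.980 and 0.538 for the latter, where b and c lay far apart. Zfp568, whose KRAB protein silences a placental promoter of Igf2, is the deepest of the former, and Zfp36, an RNA-binding protein with another kind of finger, ends the latter.

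Among single viewpoints the most events belonged to Zfp182, Zfp280c (21887, 32819 and 32063 in libraries a, b and c), Zfp949 (11945, 24741 and 24617), Zfp280d (10068, 23123 and 23369) and Zfp292 (5887, 14341 and 14327). Of these, Zfp182 and Zfp280c lie on chromosome X, and Zfp949 and Zfp280d in the deeply captured stretch of chromosome 9. Without that chromosome and that stretch, 70 single viewpoints remained, with a median cis total of 5887 events in the sum. Whether the depth of these promoters goes with their region was not tested. Apart from Zfp949 none of the named viewpoints had a called contact.

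Members were also grouped by 4 lists of known roles. Of 12 genes for RNA or ribosome binding, 11 were captured. Zfp593, a factor of large ribosomal subunit assembly, was the deepest with 5876, 9371 and 8969 events, of which 47.9% ± 3.9 lay within 1 Mb (SD, n = 2). Zfp622, which acts in the same assembly path, had 3141, 5446 and 5582 events and 30.2% ± 3.22 within 1 Mb. Zfp36, whose product tristetraprolin binds AU-rich elements and promotes mRNA decay, had 1467, 2164 and 2077 events and the largest local share of these, 54.1% ± 2.0. Its relative Zfp36l2 had 52.7% ± 1.81, from 870, 1342 and 1267 events. Zfp207, a protein of the mitotic spindle and kinetochore, had 36.7% ± 3.21, Zfp106 47.2% ± 2.21, Zfp830_Cct6b 47.2% ± 2.33 and Zfp638 40.7% ± 1.25 (SD, n = 2). Zfp36l1, Dock4_Zfp277 and Zfp598, an E3 ligase of stalled ribosomes, had 982, 726 and 144 events in all and were below the 1000 needed.

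Of 10 genes for transcription and chromatin factors, 7 were captured by 8 viewpoints. Zfp148_1700007L15Rik was the deepest with 3750, 6813 and 6782 events and 38.4% ± 2.46 within 1 Mb, and Zfp143, which binds promoters, had 2464, 3957 and 4000 events and 48.8% ± 1.76. The local share was 52.7% ± 5.35 in Zfp384, 45.1% ± 2.27 in Zfp335, 30.0% ± 2.39 in Zfp64, and 40.7% ± 2.41 and 44.9% ± 5.21 in the fragments Zfp219_a and Zfp219_b (SD, n = 2). Zfp281 had 692 events in all. Of 5 genes for coregulator complexes Zfp644 (585, 1102 and 1072 events, 35.4% ± 3.19 within 1 Mb) and Zfp687 (839 events in all) were captured. Of 4 KRAB regulators of retroelements and imprints, 3 were: Zfp568 with 5834, 13015 and 12818 events and 44.8% ± 3.89 within 1 Mb, Zfp809, which silences proviruses of the murine leukemia type, with 3034, 4417 and 4369 events and 48.3% ± 3.95, and Zfp932 with 1179, 2009 and 1984 events and 42.04% ± 1.72 (SD, n = 2). The lists held 11, 8, 2 and 3 viewpoints, and of those tested Zfp932 alone had a called contact. Of all viewpoints tested 2.31% had one, and of Zfp viewpoints 13.3%, so a single call says nothing about the roles. In these lists the share within 1 Mb ran from 30.0% to 54.1%, the lowest and the highest of the members tested.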

How the data were processed

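The 3 libraries, all of 1 group, were nuclear-titrated Capture-C libraries cut with DpnII. Per the submitters' processing notes, the authors used Trim Galore, Bowtie and build mm9. They removed duplicates and counted reporters (unique ligation events) with the CCseqBasic programs and applied CaptureCompare. As deposited, the signal is scaled to 100000 cis reporters for every viewpoint in every library. The smallest value of each viewpoint and library was taken as 1 event, and within 0.01 of an event 100% of the values were whole numbers in all libraries, so the planned count test was run on the events. All 3 value columns of the table were used and 0 were left out.

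The viewpoint list held 7197 viewpoints with 7189 names, of which 16 viewpoints whose name occurred more than once were left out, and 7176 had a position and contacts. The mm9 genome (NCBIM37) was digested in silico, and targeted fragments appeared in 0 contacts. Calls were made over the distance range of the study, whose Bayesian caller peaky was not run, with a negative binomial model, 50 distance bins, dispersion by moments, viewpoints of at least 1000 cis events, and an adjusted p under 0.05. The expectation used distance and viewpoint total, and did not use fragment length. For shared sequence, words of 30 identical bases were sought on both strands, within the viewpoint and within 20 kb on either side of it, the latter for fragments over 25 kb away. This was done for Zfp viewpoints. Of other viewpoints, only those in bins of 500 kb with at least 3 annotated Zfp genes were searched, within the viewpoint alone. C2H2 fingers and KRAB A boxes were counted by their motifs in coding sequences of the GENCODE annotation, which were translated for this count.

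Named were the 15 members with the lowest adjusted p among those with a call, the 5 largest clusters, the 5 deepest single members, the 5 highest Zfp pairs with at least 30 expected events, and 4 role lists, and others are named where a count called for it. The contact of 1 of these 15 members is not reported here. The members and lists were chosen with earlier results of these data known. Alternatives covered the dispersion, depth, cluster limits, words, distances and single libraries, and 7 more were chosen after seeing the data. The call and ratio scripts were tested on simulated data. Python 3.11.15, NumPy 2.4.6, pandas 2.3.3 and SciPy 1.17.1 were used. Cis depth per Zfp viewpoint ran from 90 to 87344 events, and the number of libraries limits the precision.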

Additional observations from a re-analysis of the deposited data

How the results depend on the processing

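Of 108 summary values recomputed under alternatives, 74 stayed within 1 SD, or for counts within 1.5 times, and 34 moved, and the cause of a move was not tested unless the setting itself gives it. The dispersion mattered most to the calls. With the highest 0.1% and 1% of counts left out of it, the 42 called contacts became 145 and 248 and the 26 viewpoints 44 and 80 (22.4% and 40.8%, against 7.84% and 24.1% of all viewpoints), and Poisson counts gave 3772 and 193 (98.5%, against 98.1%). Testing no fragment within 5 places of a shared word gave 40 contacts, from 10 viewpoints (5.1%, against 2.22% of all). Testing none that shares a word with the surroundings of a Zfp viewpoint, chosen after seeing the data, gave 34 from 9. Over all viewpoints this setting gave 258 contacts. Most of the 34 belonged to the low chi-square pair Zfp943_Zfp942 and Zfp758_Zfp944, 370 to 410 kb away and near the other viewpoint of the pair. Without 1 library there were 32 to 38 contacts from 22 to 26 viewpoints, and 13 of the 42 contacts were lost without at least 1 library.

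The depth ratio of clustered to single members, 1.17, was 0.996 at a limit of 250 kb, 1.14 at 1 Mb, 1.25 without chromosome X and the deeply captured stretch of chromosome 9, 1.2 for viewpoints naming Zfp genes only, and 1.14 to 1.19 without 1 library. The value between Zfp promoters, 1.85 in the sum, was 1.65 over 1 to 5 places, 3.68 with word-sharing fragments kept, 1.16 without those within 5 places of a shared word, 2.46 with viewpoints weighted equally and 1.76 at 250 kb. Under alternatives chosen after seeing the data it was 1.19 without words of the surroundings, 1.35 without the 6 viewpoints of low chi-square pairs and 1.61 at 300 to under 1000 bases away from words. Without 1 library it was 1.84 to 1.87. With other promoters the value of 1.51 became 1.62 over 1 to 5 places, 1.80 weighted equally, 1.44 at 1 Mb, 1.44 with another Zfp gene required within 500 kb, 2.10 at 300 to under 1000 bases and 2.09 away from words, and 1.49 to 1.54 without 1 library. The side ratio of 1.08 was 1.05 from 10 to 200 kb, 1.05 away from words, and 1.07 to 1.08 without 1 library. The far value of 0.954 was 0.923 over 5 Mb, 0.984 for bins of at least 5 Zfp genes, 0.920 without chromosome 7, and 0.946 to 0.962 without 1 library. Events at shared words, 55.3 times expectation, were 79.7 with 50-base words, and 54.5 to 55.8 without 1 library. The ratio of runs of 70 bases to no run, 2.30 in clustered members, was 1.57 at 300 to under 1000 bases.

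No paired comparison of conditions was possible because the libraries form 1 group. Depth limits the calls, since a fragment of few expected events needs several to pass.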

Other observations

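The Zfp viewpoints with the most local contacts lay together on chromosome 7, in a cluster named here after its values were seen. From chr7:134376138 to chr7:135020735 it held 6 viewpoints, and the share of cis events within 1 Mb was 70.03% ± 5.56 in Zfp688, 69.2% ± 4.68 in Zfp553_Gm4532, 67.2% ± 2.26 in Zfp689, 65.7% ± 4.55 in Zfp747 and 56.1% ± 2.86 in Zfp668 (SD, n = 2). Zfp771, with 95, 178 and 171 cis events in libraries a, b and c, was too shallow for a share. The lowest shares belonged to Zfp317 with 24.4% ± 0.339 and Zfp873 with 24.5% ± 2.66 (SD, n = 2). Events between the promoters of the chromosome 7 cluster were 0.700, 0.629 and 0.802 times expectation in libraries a, b and c. The small error of their mean, 0.708 ± 0.011 (SD, n = 2), does not show that b and c lay far apart. The cluster had 0 called contacts, and Zfp553_Gm4532 had 11, 6 and 14 events beside Zfp771, 0.513 times expectation in the sum. Among viewpoints that are not Zfp promoters, 10 of 39846 pairs within 1 Mb had a chi-square per fragment between their lists under 0.9, and 0 of 2246 pairs of a Zfp and another viewpoint did. Of these, the beta-globin promoters Hbb-b1 and Hbb-b2 had 93.8% of fragments in both lists and the alpha-globin promoters Hba-1 and Hba-2 68.8%. The short list of Wbp4_Elf1 stood to 57.0% and 57.6% in the longer lists of Kbtbd6_b and Kbtbd7_a, which was 2.92% and 3.002% of the latter.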
